A study of Mus musculus with 18 samples.

Results

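Chromosome 8 was followed in 18 whole-genome bisulfite sequencing (WGBS) libraries of mouse embryonic stem cells (ESCs), of which 9 were from control cells and 9 from Dnmt1 KO cells. The chromosome was cut into 1318 tiles of 100 kb, of 24731 such tiles on all autosomes, and every tile was a member. It was chosen by its coverage: the number of CpG calls on chromosome 8 relative to the other autosomes had been seen to change between these libraries, and the limit of 80 Mb between its parts was placed by the same values. Coverage is therefore given as a description without a test, and the question asked is whether CpG methylation, which did not enter the choice, followed it. The part before 80 Mb held 800 tiles and the part after 80 Mb held 518.

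Control cells were labelled as wild type for Dnmt1. In Dnmt1 KO cells the gene had been removed by Cre recombinase, which was switched on by tamoxifen, and days were counted from induction. Both genotypes were sampled at days 1, 3, 6, 9 and 11, in duplicate except at day 6, which had a single library of each. The labels gave the strain E14 for all libraries, whereas the methods gave C57BL/6 for the floxed Dnmt1 cells. Whether both genotypes were of the same line is thus unclear. If they were not, a difference between genotypes and a difference between cell lines cannot be told apart.

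DNMT1 copies the methylation of CpG dinucleotides onto the new DNA strand after replication, so that cells without it lose methylation as they divide, while DNMT3A and DNMT3B can still add some. Gain of an extra chromosome 8 is a recurrent abnormality of cultured mouse ESCs, and a population that mixes cells with and without the extra copy gives an intermediate number of reads. A bisulfite read reports both the presence of a DNA fragment and the methylation of its CpGs, so both can be followed on the same chromosome.

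To show what the calls were made on, 4 windows of 200 bases are printed, taken from the tiles with the lowest and the highest relative methylation in late Dnmt1 KO cells in each part of the chromosome. Within each tile the window with the most calls that did not overlap an annotated UTR was used. The sequences are the + strand of the NCBIM37 reference, and capitals mark the CpGs that a call can come from.

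Before 80 Mb, lowest (chr8:73062579-73062778): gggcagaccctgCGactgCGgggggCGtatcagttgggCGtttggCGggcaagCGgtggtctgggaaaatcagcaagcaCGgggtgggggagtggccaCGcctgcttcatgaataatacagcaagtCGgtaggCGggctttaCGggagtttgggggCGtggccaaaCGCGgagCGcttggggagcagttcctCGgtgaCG
Before 80 Mb, highest (chr8:49420982-49421181): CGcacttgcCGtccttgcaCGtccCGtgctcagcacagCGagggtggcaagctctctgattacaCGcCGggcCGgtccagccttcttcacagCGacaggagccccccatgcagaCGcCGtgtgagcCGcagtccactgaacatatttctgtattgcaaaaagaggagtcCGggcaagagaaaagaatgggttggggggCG
After 80 Mb, lowest (chr8:103205592-103205791): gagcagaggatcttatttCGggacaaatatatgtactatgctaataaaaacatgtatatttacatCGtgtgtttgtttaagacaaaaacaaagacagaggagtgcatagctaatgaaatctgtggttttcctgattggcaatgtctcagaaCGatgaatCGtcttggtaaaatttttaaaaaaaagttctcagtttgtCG
After 80 Mb, highest (chr8:117349022-117349221): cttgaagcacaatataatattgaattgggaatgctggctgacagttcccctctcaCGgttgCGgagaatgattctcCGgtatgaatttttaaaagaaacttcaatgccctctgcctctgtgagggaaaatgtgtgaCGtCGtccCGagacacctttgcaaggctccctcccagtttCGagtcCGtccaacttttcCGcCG

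The first window is intergenic, 796 bp from Ell, which encodes an RNA polymerase II elongation factor, and has 17 CpGs. Over the control libraries of days 9 and 11 none of its 98 calls was methylated, which allows a share of up to 3.06%. For Dnmt1 KO cells of the same days 3.45% of 29 calls were methylated (95% exact Clopper-Pearson interval 0.0873% to 17.8%). This window was at or near 0 in both genotypes. The second window overlaps a coding exon of the teneurin gene Odz3 and has 14 CpGs. It went from 96.9% of 32 control calls (83.8% to 99.9%) to 45.0% of 20 Dnmt1 KO calls (23.1% to 68.5%). The third window is intergenic, 61197 bp from the gene model Gm3662, and has 5 CpGs. There 90.9% of 22 control calls were methylated (70.8% to 98.9%) and none of 8 Dnmt1 KO calls, which allows up to 37.5%. The fourth window, in an intron of the oxidoreductase gene Wwox, has 10 CpGs, with 76.5% of 17 control calls methylated (50.1% to 93.2%) and 55.6% of 27 Dnmt1 KO calls (35.3% to 74.5%). These intervals and limits cover counting error only, and the calls of a window share reads.

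Libraries held 7190722 to 11158414 calls, or 1.202 to 1.25 calls per listed cytosine and 0.154 to 0.249 per CpG cytosine of the reference on the other autosomes, so that single CpGs could not be compared and calls were summed. Chromosome 8 took 205600 to 340116 calls per library before 80 Mb and 194542 to 337383 after it. Of its 1318 tiles, 1252 had at least 30 calls in every library, 65 had 0 calls in all libraries, and 1 had calls but fewer than 30 in at least 1 library. In the mitochondrial genome, a background for unconverted cytosines, 0.228% to 0.467% of calls were methylated. Calls per cytosine of the GC-richest 25% of tiles, divided by those of the GC-poorest 25%, were 0.931 to 1.15 in 17 libraries and 1.76 in control day 1 replicate 2, which therefore stood apart. Cytosines with over 20 calls in any library were left out. They numbered 18 on chromosome 8 and held at most 0.0517% of its calls, compared with 5.57% to 9.65% of all autosomal calls.

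The parts of chromosome 8 differed in base composition. The median tile had 40.4% GC and 691 CpGs before 80 Mb, 44.2% GC and 1038 CpGs after it, and 41.4% GC and 777 CpGs on the other autosomes. Because GC content moves with both read number and methylation, values are given against the other autosomes as they are and, in a setting added after the data were examined, against the other autosomes weighted to the same 20 bins of GC content.

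Relative coverage was the number of calls per CpG cytosine of the reference, divided by that number on the other autosomes of the same library. Chromosome 8 was over-represented in every library. With GC weighting its coverage lay between 1.14 and 1.27 as a whole, while the other 18 autosomes ranged from 0.934 to 1.05 over all libraries. No other autosome reached the lowest value of chromosome 8.

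Before 80 Mb, relative coverage in Dnmt1 KO cells was 1.188 and 1.180 at day 1, 1.189 and 1.198 at day 3, 1.160 at day 6, 1.132 and 1.136 at day 9, and 1.110 and 1.110 at day 11. The Dnmt1 KO libraries thus fell from day 6 on, and both day 11 libraries lay below all of days 1 to 9. Control cells gave 1.176 and 1.137 at day 1, 1.213 and 1.203 at day 3, 1.234 at day 6, 1.231 and 1.224 at day 9, and 1.177 and 1.191 at day 11. From day 3 on, every Dnmt1 KO library lay below every control library of its day in this part. The change from day 1 to day 11 was -0.0734 in Dnmt1 KO cells and 0.0275 in control cells, compared with a replicate SD of 0.0113. Control day 1 replicate 2, the library with the strong GC bias, set much of the latter value, which was 0.00550 with GC weighting.

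After 80 Mb, both genotypes lost coverage. Dnmt1 KO libraries gave 1.273 and 1.302 at day 1, 1.263 and 1.279 at day 3, 1.228 at day 6, 1.207 and 1.175 at day 9, and 1.201 and 1.183 at day 11. Control libraries gave 1.300 and 1.382 at day 1, 1.312 and 1.309 at day 3, 1.327 at day 6, 1.280 and 1.276 at day 9, and 1.196 and 1.211 at day 11. The control libraries of day 11 lay below all earlier control libraries in this part. From day 1 to day 11 the change was -0.0957 in Dnmt1 KO cells and -0.137 in control cells (-0.0909 and -0.0779 with GC weighting), compared with a replicate SD of 0.0242. At day 11 the genotypes overlapped after 80 Mb, whereas before 80 Mb the Dnmt1 KO libraries were lower by more than the spread of replicates.

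**Figure D1:**
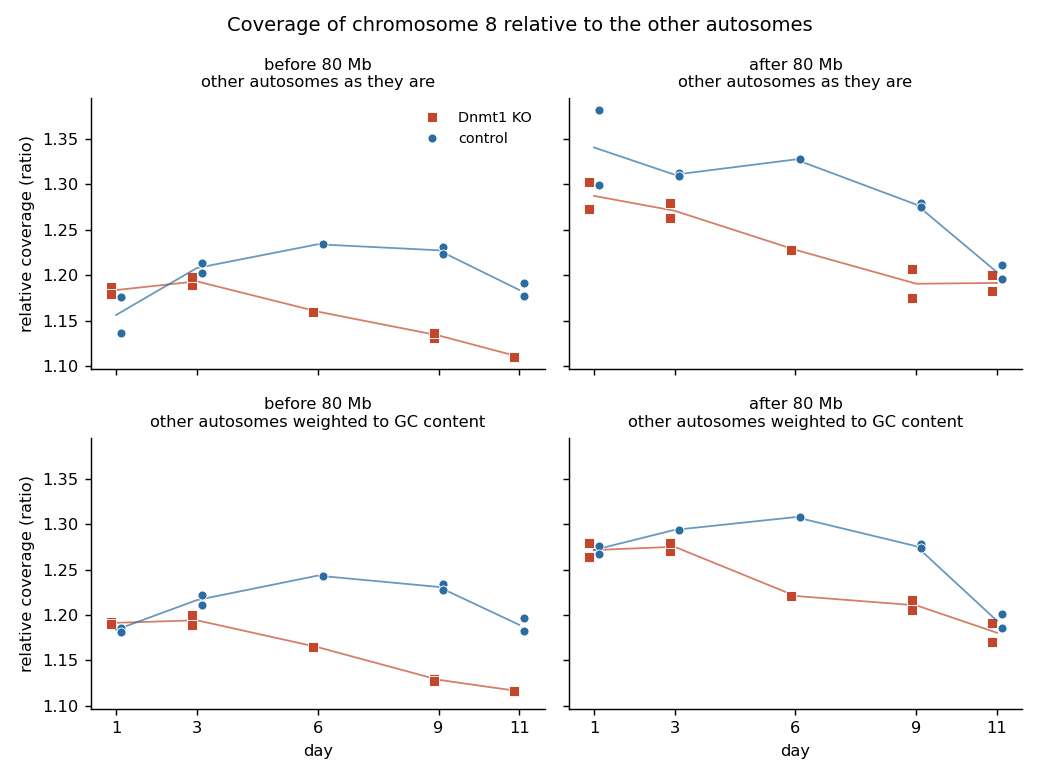
Relative coverage (ratio to the other autosomes, vertical axis) by day (horizontal axis) before and after 80 Mb, without (top) and with (bottom) GC weighting; points are libraries of control (circles) and Dnmt1 KO (squares), and lines join the means of a day. Dnmt1 KO libraries go down in both parts, while control libraries at day 11 go down mainly after 80 Mb, to 1.196 and 1.211.

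The loss in control cells at day 11 was uneven along the chromosome. With GC weighting, the ratio of coverage after to before 80 Mb was 1.003 and 1.004 in the control libraries of day 11 and 1.035 to 1.076 in the other 16 libraries. In control cells it had gone down at each earlier day too, with means of 1.074, 1.064, 1.052 and 1.036 at days 1, 3, 6 and 9. The means of Dnmt1 KO cells stayed between 1.048 and 1.073. In segments of 5 Mb, control coverage at day 11 divided by that of days 3 to 9 had a median of 0.963 over the 16 segments before 80 Mb (0.925 to 1.02) and of 0.922 over the 11 segments after it (0.895 to 0.968). Both control libraries of day 11 lay below all 5 of days 3 to 9 in 8 of the 16 segments before the limit and in 11 of the 11 after it. For Dnmt1 KO cells, day 11 divided by day 1 gave 0.940 before the limit (0.882 to 1.01) and 0.928 after it (0.889 to 0.958), and day 11 lay below days 1 and 3 in 15 of the 16 segments and in 11 of the 11. Segments of the other autosomes were not counted in this way, so these counts have no background to be read against. All segments also come from the same libraries. By the ratios, the loss in Dnmt1 KO cells ran along nearly the whole chromosome.

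**Figure D2:**
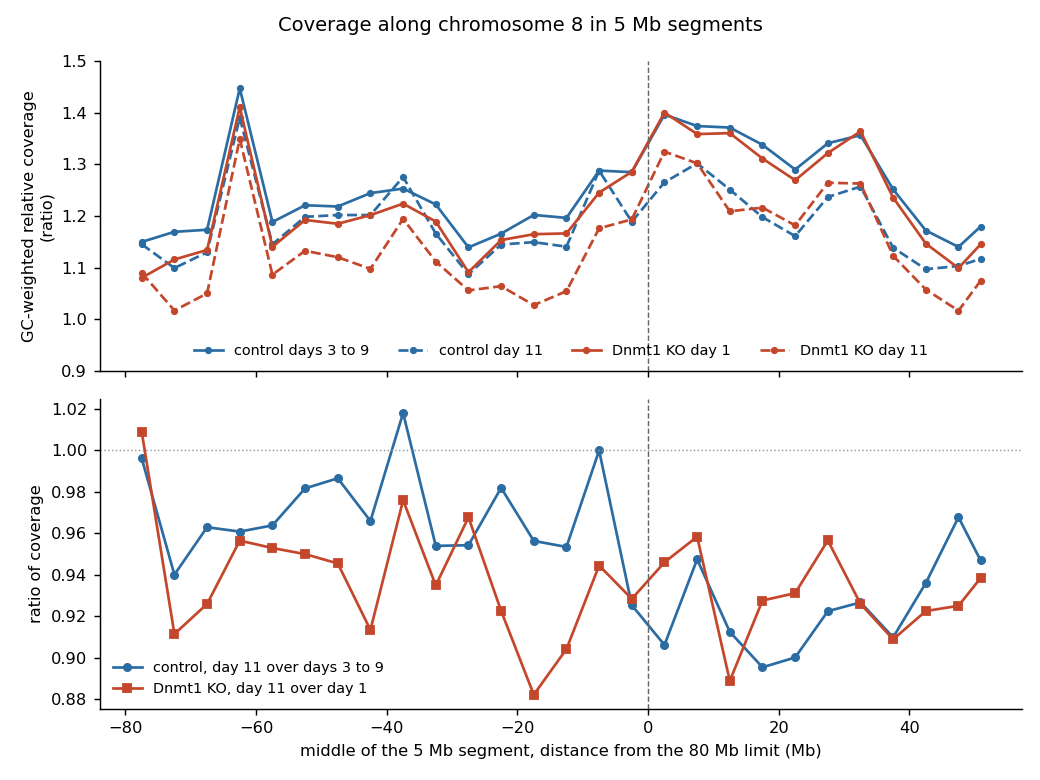
GC-weighted relative coverage (top, ratio) and its change (bottom, ratio of late to early) in 27 segments of 5 Mb, placed by distance from the 80 Mb limit (dashed line); points are segments. The change in control cells lies between 0.925 and 1.02 before the limit and between 0.895 and 0.968 after it, while that of Dnmt1 KO cells is alike on both sides.

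On either side of the limit, steps of 1 Mb showed no sharp border at 80 Mb. The control ratio of day 11 to days 3 to 9 was 1.01, 1.05 and 1.03 in the steps starting at 72, 73 and 74 Mb, 0.948 at 75 Mb, 0.923 in the last step before the limit and 0.908 in the first step after it. Among the steps given, values in the control thus passed below 0.95 about 5 Mb before the limit that the rule used. Similar values also occurred farther from it. The control ratio was 0.940 in the segment from 5 to 10 Mb and 0.953 in that from 65 to 70 Mb, so these steps place no border. The segment from 15 to 20 Mb stood above its neighbours in every group and day, at 1.35 to 1.46.

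Single tiles gave the same description. The median tile's control ratio of day 11 to days 3 to 9 was 0.967 before 80 Mb, 0.921 after it and 0.995 on the other autosomes, and 84.6% of tiles after 80 Mb lay below the median of the other autosomes. For day 11 of Dnmt1 KO against day 1, the medians were 0.934, 0.928 and 0.998. Dnmt1 KO against control at day 11 gave 0.937 before and 0.994 after the limit. The Dnmt1 KO libraries of day 11 therefore had less coverage than the control libraries of that day mainly in the first 80 Mb.

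Chromosome 8 was chosen by its changing coverage, so its place among the autosomes in coverage is a description only. The change of GC-weighted coverage from day 1 to day 11 in Dnmt1 KO cells was -0.0829 for chromosome 8, compared with -0.0247 to 0.0416 for the other 18. In control cells it was -0.0360 for chromosome 8, which the rise of 0.0543 on chromosome 14 exceeded in size.

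Methylation fell on chromosome 8 as it did elsewhere. On the other autosomes Dnmt1 KO libraries had 69.4% and 69.8% methylated calls at day 1, 32.5% and 33.8% at day 3, 23.3% at day 6, 23.7% and 24.4% at day 9, and 23.3% and 23.9% at day 11. Before 80 Mb of chromosome 8 the same libraries had 70.2% and 70.7%, 32.6% and 33.5%, 22.5%, 22.9% and 23.5%, and 22.7% and 23.4%. After 80 Mb they had 69.7% and 69.5%, 33.9% and 35.2%, 25.1%, 25.3% and 26.3%, and 24.9% and 25.8%. Control libraries stayed between 71.5% and 79.4% before and between 70.03% and 78.9% after 80 Mb, with the lowest values at day 11 in both parts. Every Dnmt1 KO library lay below every control library of its day in both parts.

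The methylation gap is the percent methylated of a part minus that of the other autosomes of the same library, in percentage points. This removes a shift of equal points on all autosomes, but not a loss in proportion to the level. Before 80 Mb the gap in control cells was between 0.715 and 1.26 at all days. In Dnmt1 KO cells it was 0.775 and 0.8999 at day 1, 0.0261 and -0.292 at day 3, -0.835 at day 6, -0.760 and -0.917 at day 9, and -0.635 and -0.552 at day 11. The first 80 Mb thus went from slightly more to slightly less methylated than other autosomes as methylation was lost. Averaged over days, Dnmt1 KO minus control was -1.22 points (two-sided exact permutation of genotypes within days, n = 9 per genotype, p = 0.00154, adjusted p = 0.00206 over 4 measures). In 8 of 9 Dnmt1 KO libraries the gap lay below all control libraries of the day.

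After 80 Mb the gap moved in the opposite direction. In control cells it was between -0.708 and 0.216, with both day 11 libraries lowest. The Dnmt1 KO libraries had 0.342 and -0.244 at day 1, 1.32 and 1.40 at day 3, 1.78 at day 6, 1.61 and 1.84 at day 9, and 1.62 and 1.88 at day 11. Dnmt1 KO minus control was 1.51 points (exact permutation p = 0.00154, adjusted p = 0.00206), with 8 of 9 Dnmt1 KO libraries above all control libraries of the day. The difference between the parts, after minus before, was 2.73 points larger in Dnmt1 KO than in control cells (exact permutation p = 0.00154, adjusted p = 0.00206). For the whole chromosome the opposite shifts left 0.124 points (exact permutation p = 0.0424, adjusted p = 0.0424). This last call did not hold with pairing by replicate number (p = 0.0938 by exact permutation of pairs), nor in 11 of the 18 fits that left out 1 library.

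With GC weighting, both shifts shrank and that after 80 Mb changed sign. The gap after 80 Mb was then 1.66 to 2.26 points in control cells at all days. The Dnmt1 KO libraries had 2.02 and 1.54 at day 1, 1.29 and 1.54 at day 3, 1.04 at day 6, 0.635 and 0.808 at day 9, and 0.909 and 1.13 at day 11. Relative to GC-matched sequence, the part after 80 Mb was thus more methylated in every library, and less so in late Dnmt1 KO cells than in control cells. Dnmt1 KO minus control was -0.750 points after 80 Mb (exact permutation, adjusted p = 0.0108), -0.299 before it (exact permutation, adjusted p = 0.0206) and -0.524 for the whole chromosome (exact permutation, adjusted p = 0.00926). After minus before was -0.450 (exact permutation, adjusted p = 0.0247). When the other autosomes were weighted to both GC content and methylation of the control cells, the 4 differences lay between -0.173 and 0.116 points and none passed the test (exact permutation, adjusted p = 0.299 to 0.653). The methylation bins of this setting were built from the same control libraries that entered the test. Genotypes are therefore not freely exchangeable in it, and its p-values are a guide only. With weighting to classes of CpG density the difference was -0.454 for the whole chromosome (exact permutation, adjusted p = 0.00154), where it turned the direction, -1.14 before 80 Mb (exact permutation, adjusted p = 0.00154), 0.255 after 80 Mb (exact permutation, adjusted p = 0.0162) and 1.40 for after minus before (exact permutation, adjusted p = 0.00309). The size of the difference over the whole part after 80 Mb thus depended on the sequence set against it. Its direction turned with the weightings that used GC content. For the median tile it also turned with matching by CpG density. On a log2 scale the sign of the median tile turned, but it stayed above the median of all tiles, as given below.

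**Figure D3:**
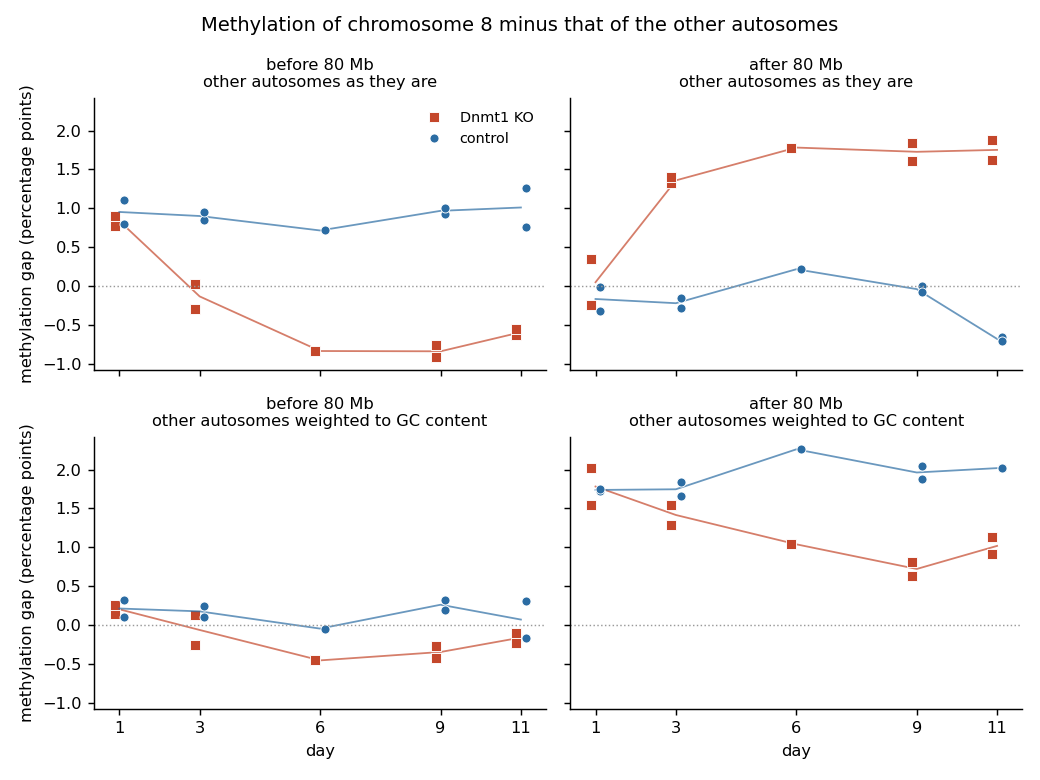
Methylation gap (percentage points, vertical axis) by day before and after 80 Mb, against the other autosomes as they are (top) and weighted to GC content (bottom); points are libraries and lines join the means of a day. Dnmt1 KO libraries after 80 Mb lie above the control from day 3 on at the top, at 1.32 to 1.88, and below it at the bottom, at 0.635 to 1.54.

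To ask whether methylation followed coverage, the gap was set against relative coverage over the 9 libraries of each genotype. In Dnmt1 KO cells after 80 Mb the gap was higher where coverage was lower, with Pearson's r of -0.811 (exact permutation p = 0.00097, adjusted p = 0.00388 over 4 relations) and Spearman's rho of -0.883 (exact permutation p = 0.00308, adjusted p = 0.0123). Without the 2 libraries farthest from the median coverage r was -0.699. Coverage was 1.263 to 1.302 at days 1 and 3 and 1.175 to 1.228 at days 6 to 11, where the gap stayed at 1.61 to 1.88. The r thus rests mainly on the step between these days. The permutation takes the 9 libraries as independent, although replicates share a day. In control cells after 80 Mb the sign was the opposite, with r of 0.783 (exact permutation p = 0.0135, adjusted p = 0.0270) and rho of 0.617, which did not pass (exact permutation p = 0.0857, adjusted p = 0.171). The relation in control cells rested on the day 11 libraries, since r was 0.257 without them. Before 80 Mb r was 0.644 in Dnmt1 KO cells (exact permutation p = 0.0661, adjusted p = 0.0882) and -0.201 in control cells (exact permutation p = 0.601). Leaving out 1 library gave -0.608 to -0.00443 for this r in control cells. After 80 Mb, lower coverage therefore went with a higher gap in Dnmt1 KO cells and a lower gap in control cells, and before 80 Mb the signs were the other way round, without a call.

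With weighting to CpG density the relations after 80 Mb lost their calls, with r of -0.692 in Dnmt1 KO and 0.731 in control cells (exact permutation, adjusted p = 0.0695 each). With GC weighting none of these 4 relations passed the test after adjustment. In Dnmt1 KO cells after 80 Mb r changed sign to 0.695 (exact permutation p = 0.0379, adjusted p = 0.151), and in control cells after 80 Mb it was -0.165. Leaving out 1 library gave 0.662 to 0.799 in Dnmt1 KO cells and -0.639 to -0.0275 in control cells. Control coverage after 80 Mb fell from 1.27 to 1.31 with GC weighting at days 1 to 9 to 1.186 and 1.201 at day 11, while the gap of those libraries, at 2.02 and 2.02, lay within the range of the earlier days, 1.66 to 2.26. With GC weighting, a loss of coverage thus took place in control cells with the gap inside its earlier range.

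Coverage and methylation both changed with the day in Dnmt1 KO cells, and so could also be related through it. The gap went with the day in Dnmt1 KO cells before 80 Mb (r = -0.823, exact permutation p = 0.00450, adjusted p = 0.00899) and after it (r = 0.788, exact permutation p = 0.00203, adjusted p = 0.00811), but not detectably in control cells (r = 0.171 and -0.401). Spearman's rho in Dnmt1 KO cells was -0.703 before 80 Mb, which did not pass (exact permutation, adjusted p = 0.0825). With GC weighting the relation after 80 Mb turned to r of -0.825 (exact permutation, adjusted p = 0.0243; rho of -0.788 did not pass, adjusted p = 0.0635) and that before 80 Mb, at -0.630, lost its call (exact permutation, adjusted p = 0.104). With CpG density weighting the relation after 80 Mb, at 0.687, lost its call (exact permutation, adjusted p = 0.0741). Between the replicates of a day and genotype, where the day is the same, the gap and coverage differed in the same direction in 1 of 8 pairs before 80 Mb and in 3 of 8 pairs after it. The slopes were -0.811 points per unit of coverage (exact permutation of replicates, p = 0.883) and -0.341 (p = 0.945). Over all 8 pairs no relation was detectable. The slope before 80 Mb rested on the control pair of day 1, which includes the library with the strong GC bias: without either library of that pair it was -25.0 (exact permutation p = 0.0156, adjusted p = 0.0313), with lower coverage beside a higher gap. With GC weighting the slope before 80 Mb was -22.2 over all 8 pairs (exact permutation p = 0.172).

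**Figure D4:**
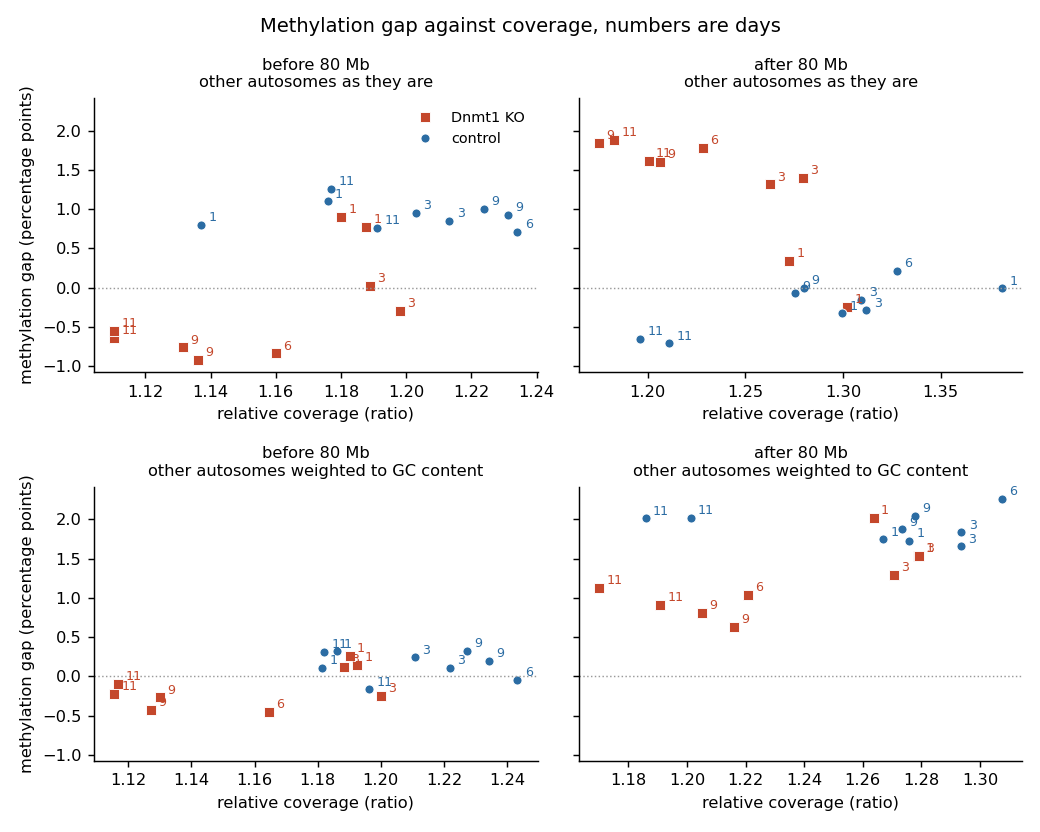
Methylation gap (percentage points, vertical axis) against relative coverage (ratio, horizontal axis) before and after 80 Mb, without (top) and with (bottom) GC weighting; each point is a library and its number is the day. After 80 Mb the Dnmt1 KO points slope down without GC weighting (r = -0.811) and up with it (r = 0.695).

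Along the chromosome, the change of coverage was also set against the change of the GC-matched gap, as a description. Over the 1252 tiles the correlation was -0.234 for control day 11 against days 3 to 9 and -0.0524 for Dnmt1 KO day 11 against day 1. On the other autosomes, where coverage moved less, these were -0.218 and -0.0253. Over the 27 segments they were -0.400 and -0.307. Coverage and methylation of a tile are computed from the same calls, so these points are not independent measurements.

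Methylation was then tested in single tiles with limma, on each tile's percent methylated relative to the other autosomes of its library. For Dnmt1 KO minus control over days 3 to 11, 44.6% of the 23811 autosomal tiles were lower and 19.6% were higher at an adjusted p under 0.05. On chromosome 8, 588 of 1252 tiles (47.0%) were lower and 267 (21.3%) higher, with a median difference of -2.91 points compared with -2.89 over all tiles. The chromosome as a whole was thus near the background, but its parts lay on opposite sides of it. Before 80 Mb 426 of 734 tiles (58.0%) were lower and 110 (14.99%) higher, with a median of -6.24, whereas after 80 Mb 162 of 518 (31.3%) were lower and 157 (30.3%) higher, with a median of 0.56.

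Set against tiles of the same GC content, the background was 16.7% lower and 10.02% higher. Before 80 Mb 142 tiles were then lower and 53 higher, and after 80 Mb 152 were lower and 47 higher, with medians of -1.92 and -2.27 compared with -1.23 over all tiles. The balance of calls after 80 Mb thus moved from near equal to mostly lower. Relative to tiles of the same CpG density, 72 tiles after 80 Mb were lower and 27 higher (13.9% and 5.21%), compared with 6.85% and 6.13% of all tiles. The median after 80 Mb was then -1.57, compared with -0.661 over all tiles. On the log2 scale of methylated over unmethylated calls it was -0.0887, compared with -0.334 over all tiles. With control methylation also matched, 77 tiles of chromosome 8 (6.15%) were lower and 58 (4.63%) higher, compared with 3.90% and 4.17% of all tiles.

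Within genotypes, tiles were compared between days 11 and 1 on the same relative measure, from which a change of equal points on the other autosomes is removed. The median control tile had 81.4% methylated calls at day 1 and 77.2% at day 11 before 80 Mb, and 80.7% and 75.9% after it. For control day 11 minus day 1, limma called 0.0378% of all autosomal tiles lower and 0.00840% higher, and none of the 1252 on chromosome 8, where 138 had an unadjusted p under 0.05, compared with 2021 of all 23811 tiles. The median difference in control cells was 0.60 points before 80 Mb and -0.0081 after it, compared with 0.29 over all tiles. For Dnmt1 KO day 11 minus day 1 the background was 24.6% lower and 8.71% higher. On chromosome 8 378 tiles (30.2%) were lower and 119 (9.50%) higher, of which 274 and 48 lay before 80 Mb and 104 and 71 after it. These counts depended on the setting: relative to tiles of the same GC content they were 28 and 25, against a background of 1.30% lower and 1.88% higher. Without Dnmt1 KO day 11 replicate 1, day 11 replicate 2 or day 1 replicate 2, respectively, 219, 214 and 224 tiles were lower and 60, 62 and 77 were higher. Over all 23811 tiles the same fits called 2943, 2623 and 2925 lower and 1027, 907 and 1239 higher, so the background fell alongside. These contrasts share Dnmt1 KO libraries with the one above.

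Beside the other autosomes, chromosome 8 as a whole was not extreme in methylation. The GC-weighted gap of Dnmt1 KO minus control, -0.524 points, was exceeded in size by that of 4 of the other 18 autosomes, which lay between -0.595 and 0.827. Without weighting its value was 0.124, whose direction turned with no cytosine left out (-0.277) and with each tile counted once (-0.188). The others lay between -1.72 and 2.15 without weighting, a range that also holds the shifts of the parts, -1.22 and 1.51. With GC weighting the shift after 80 Mb, -0.750, lay below the lowest of the other autosomes. Parts of the other autosomes were not measured. From day 1 to day 11 of Dnmt1 KO cells, the GC-weighted gap of chromosome 8 changed by -0.566 points, compared with -1.11 to 1.06 for the others. Its coverage change over these days lay outside the range of the others, but coverage had chosen the chromosome.

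**Figure D5:**
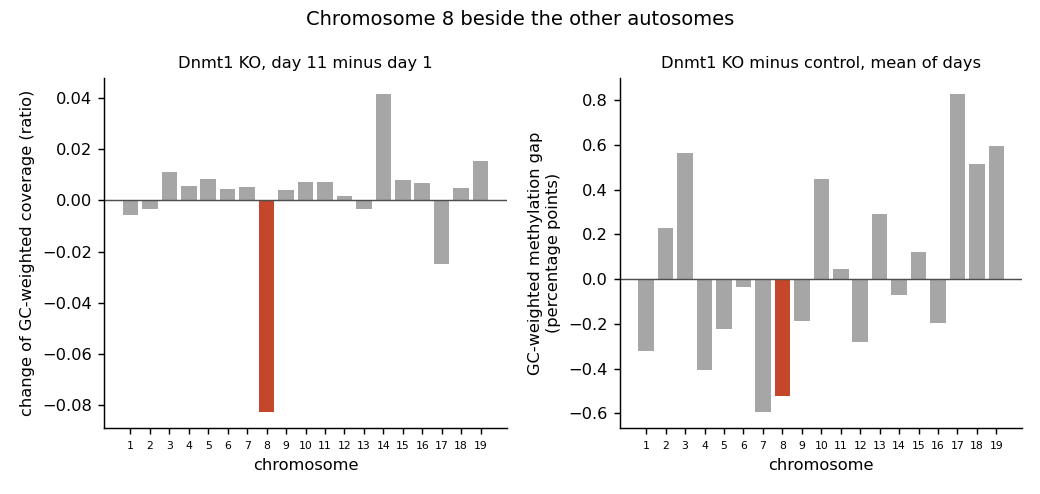
Change of GC-weighted relative coverage from day 1 to day 11 in Dnmt1 KO cells (left, ratio) and GC-weighted methylation gap of Dnmt1 KO minus control, averaged over days (right, percentage points), for each of 19 autosomes, with chromosome 8 coloured. Chromosome 8, which was chosen by its coverage, has the largest change of coverage, -0.0829. Its gap, -0.524, lies between -0.595 and 0.827, the range of the others.

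Levels differed widely between tiles of chromosome 8 in both genotypes. The median tile of control cells at days 9 and 11 had 79.3% methylated calls before 80 Mb, and that of Dnmt1 KO cells 74.2% at day 1, 32.1% at day 3 and 21.0% at days 9 and 11. After 80 Mb the Dnmt1 KO medians were 73.6%, 34.5% and 24.8%, and on the other autosomes 22.4% at days 9 and 11. Tiles reached from 9.16% to 42.8% before 80 Mb and from 6.77% to 45.4% after it in the late Dnmt1 KO libraries, and from 31.6% to 88.0% and from 32.6% to 85.9% in the control libraries of those days. The tiles named next were picked by those levels and are described without a test, as means ± SD over the 4 Dnmt1 KO libraries of days 9 and 11.

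After 80 Mb the highest tiles were 3 within Wwox (NCBIM37 chr8:117300001-117400000, chr8:117000001-117100000 and chr8:117100001-117200000), at 45.4% ± 3.3, 45.1% ± 5.0 and 42.9% ± 1.8. Control cells of the same days had 84.2%, 85.8% and 85.2% there. The intron window of Wwox printed above comes from the first of these. Before 80 Mb the highest were 2 tiles within Odz3 (chr8:49400001-49500000 and chr8:49500001-49600000), at 42.8% ± 2.3 and 39.8% ± 2.5, and 1 within Arhgap10 (chr8:79800001-79900000), at 39.6% ± 1.5. The tiles picked as highest thus lay within genes in both parts, with 41.9% to 46.1% GC. So did 2 of the tiles picked as lowest, described next. The share of all tiles that lie within genes was not counted.

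The lowest tiles after 80 Mb held no annotated gene (chr8:103200001-103300000, chr8:102300001-102400000 and chr8:102900001-103000000). They had 6.77% ± 1.5, 8.34% ± 1.1 and 9.53% ± 2.5 in late Dnmt1 KO cells and 75.4%, 77.0% and 79.3% in control cells, with 36.4% to 37.3% GC. Before 80 Mb, 2 of the lowest tiles lay in Galntl6 (chr8:61100001-61200000 and chr8:61300001-61400000), which belongs to the family of enzymes that start mucin-type O-glycosylation. They had 9.21% ± 1.7 and 9.37% ± 3.5, from 76.7% and 75.4% in control cells. The remaining low tile (chr8:73000001-73100000) differed in kind: with 51.8% GC it held 8 genes, among them Fkbp8 and Ell, and had only 31.6% methylated calls in control cells and 9.16% ± 1.1 in late Dnmt1 KO cells. All these tiles were picked for their low late levels. The GC-poor ones among them had far higher levels in control cells than the GC-rich gene cluster.

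The tiles on either side of the limit both overlap Arhgap10. The last before 80 Mb (chr8:79900001-80000000) had 39.0% ± 4.0 in late Dnmt1 KO cells and 85.1% in control cells. The first after it (chr8:80000001-80100000), which also holds the arginine methyltransferase gene Prmt10, had 29.2% ± 1.4 and 71.7%.

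Genes of chromosome 8 were tested with limma on the percent methylated from 1 kb upstream to the gene's end, for Dnmt1 KO minus control over days 3 to 11. This measure is not relative to other autosomes, so it carries the genome-wide loss: 97.0% of the 19285 genes tested were lower. On chromosome 8, 1011 of 1047 tested genes were lower and 0 higher, with a median difference of -42.0 points compared with -43.6 over all genes. The lists below are therefore read against a background in which nearly every gene fell.

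Of the pluripotency and early embryo list, 7 genes lay on chromosome 8, 6 were tested and 5 fell. Zfp42 (Rex1, ENSMUSG00000051176.5, chr8:44380422-44392363), a marker of undifferentiated ESCs, had 29.4% to 51.5% in the 4 control libraries of days 9 and 11 and 5.71% to 19.7% in the Dnmt1 KO libraries of those days, which did not overlap. Its difference was -31.4 ± 4.7 (SE; limma adjusted p = 1.1e-05). Cdh1 (ENSMUSG00000000303.6, chr8:109127251-109194146), the E-cadherin that holds ESC colonies together, had 42.8% to 56.1% in control and 15.6% to 21.1% in Dnmt1 KO libraries, a difference of -31.8 ± 1.6 (SE). Klf2, a factor of naive pluripotency, did not pass, with a mean of 4.28% in control and 2.25% in Dnmt1 KO cells at days 9 and 11. Its control mean was 26.0% at day 1, and the fitted difference over days 3 to 11 was -3.08 points (limma adjusted p = 0.456).

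Of the germline list, Tex15, a gene needed in spermatocytes, was the only one of 2 on the chromosome with enough calls. It had 63.4% to 81.1% in control and 14.03% to 21.4% in Dnmt1 KO libraries of days 9 and 11, a difference of -53.2 ± 2.0 points (SE). Of 5 homeobox and forkhead genes, developmental regulators with CpG-rich starts, 4 were tested and 1 fell, Irx6, by 26.8 points, with a median of -5.16 for the list. Metallothioneins, the small metal-binding proteins, had 1 tested member, Mt2, which did not pass, with a fitted difference of -1.40 points. Irx3, Irx5, Foxc2 and Mt2, the tested members of both lists that did not pass, were all little methylated in control cells of days 9 and 11, at 5.73%, 6.13%, 8.75% and 2.46%.

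All 8 cadherin genes, which encode calcium-dependent adhesion proteins and lie after 80 Mb, were tested and fell, with differences of -60.7 to -31.8 and a median of -48.4 points. Cdh8 fell from a range of 75.3% to 78.4% in control to 11.8% to 13.1% in Dnmt1 KO libraries, whereas Cdh13 fell from 80.1% to 86.8% to 33.7% to 35.8%. Both started high, and the level they reached differed by more than the spread of replicates. Of 52 alpha and beta defensin entries, which include pseudogenes and many similar copies in which reads are hard to place, 4 had enough calls and fell, with a median of -57.6 points. All 4 (Defb1, Defb37, Defb39 and Defb50) are beta defensins, which encode antimicrobial peptides, and no alpha defensin was tested. All 7 tested genes of chromatin and DNA methylation fell, with a median of -40.4, among them Ctcf, the insulator protein, from 51.2% to 55.6% in control to 12.4% to 21.6% in Dnmt1 KO libraries, and Smarca5, a chromatin remodelling ATPase. Another of these, Hook3, is known as a linker to microtubules rather than as a chromatin protein. In no list was a tested gene called higher, as on the chromosome as a whole. Most tested homeobox and forkhead genes and the tested metallothionein did not pass, and no list was tested against the rest of the chromosome.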

How the data were processed

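CpG methylation was read by WGBS in 18 libraries, grouped by the genotype, day and replicate of the labels. According to their methods the authors used Trim Galore to trim reads and Bismark to align them to NCBIM37 (their methods name a later version than the Bismark 0.12.3 of the submitters' processing notes, and which made the tables is unclear), removed duplicates and extracted CpG calls. The deposited tables gave counts of methylated and unmethylated calls and a deposited percent per cytosine, without normalization. Only the counts were used here. They listed cytosines with a single call.

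Between 0.101% and 0.119% of listed autosomal cytosines lay outside a CpG of the reference and were left out, as were cytosines with over 20 calls in any library. Calls were summed over tiles of 100 kb. Relative coverage was calls per reference cytosine, divided by that on the other autosomes, and carries any GC bias of a library. Differences between genotypes were tested with a two-sided exact permutation of genotypes within days (2592 arrangements, smallest p 0.00077) and relations by exact pairings, with Benjamini-Hochberg adjustment. Tiles (at least 30 calls in every library) and genes (at least 10) of all autosomes were fitted with limma 3.58.1 in R 4.3.3, with a level per genotype and day, and called at an adjusted p under 0.05. The lone libraries of day 6 were taken to vary as much as the others. The design text calls the replicates biological. Other steps used Python 3.11.15, numpy 2.4.6, pandas 2.3.3 and scipy 1.17.1. The steps were tested on simulated data.

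The chromosome, its limit, the gene lists and the tests were chosen with earlier results of these data known. Tiles named were the 3 highest and 3 lowest by relative methylation in Dnmt1 KO at days 9 and 11 in each part, and those beside the limit. Genes named were members of the lists on chromosome 8, from GENCODE models of the same build, and the 4 sequences were the windows of 200 bases with the most calls in the highest and lowest tile. In addition to that rule, windows over annotated UTRs were left out. Alternatives were other limits (70 and 90 Mb), other minimum calls (1 and 100 per tile), other maxima per cytosine, CpG density or GC weighting, log2 values and leaving out each library. The weightings by GC content, and by GC content and control methylation, were chosen after seeing the data. The bins of control methylation were built from the control libraries that were then compared. Expression and the Dnmt1 transcript were not analysed here.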

Additional observations from a re-analysis of the deposited data

Results flagged for a closer look

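Genotypes differed in how the methylation gap moved between day 1 and the later days, by a permutation of genotypes within days. For days 3 to 11 minus day 1, Dnmt1 KO minus control was -1.38 points before 80 Mb (exact permutation p = 0.00772) and 1.62 points after it (exact permutation p = 0.0177), against the other autosomes as they are. With weighting to CpG density the values were -1.26 (exact permutation p = 0.00849) and 0.486 (exact permutation p = 0.00231), in the same directions. With weighting to GC content the values were -0.362 (exact permutation p = 0.0556) and -0.992 (exact permutation p = 0.01003). The value before 80 Mb thus shrank and did not pass, and the direction after 80 Mb turned. With weighting to GC content and control methylation they were -0.279 and -0.331, and neither passed (exact permutation p = 0.0633 and 0.311). The cause of the turn was not tested.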

How the results depend on the processing

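Of 738 results recomputed under another setting, 634 kept their direction and their side of the threshold or stayed close in value, 41 changed direction, 27 lost a call, 34 moved and 2 gained a call. Of the 634, 428 came from leaving out 1 library and 206 from the other settings. Of the 41 changes of direction, 11 came from leaving out 1 library and 30 from the other settings, which were therefore less stable. Libraries held 0.154 to 0.249 calls per CpG cytosine of the reference, which limits tiles more than whole parts. Averaged over days, the gap before 80 Mb stayed lower in Dnmt1 KO cells under every setting, with a call lost only with weighting to GC content and control methylation. Its change from day 1 to days 3 to 11 did not pass with either weighting that used GC content (exact permutation p = 0.0556 and 0.0633). All causes beyond the construction of a setting were not tested.

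With no cytosine left out, the gap by genotype of the whole chromosome was -0.277, the control coverage change before 80 Mb 0.0128, r with coverage in Dnmt1 KO after 80 Mb -0.701, r with day in control before 80 Mb -0.517, and the slopes between replicates 5.79 and 1.74. With CpG density weighting the whole gap was -0.454, r with coverage after 80 Mb 0.731 in control and -0.692 in Dnmt1 KO, r with day in Dnmt1 KO after 80 Mb 0.687 and the slope before 80 Mb 0.133. With each tile counted once the whole gap was -0.188, the control coverage change before 80 Mb 0.0493, r in control after 80 Mb 0.691 and the slope after 80 Mb 1.45. With the limit at 90 Mb the control coverage change was 0.00652, r in control before the limit 0.0652 and the slopes 0.445 and 2.24. On the log2 scale of methylated over unmethylated calls the whole gap was 0.0068, r with day in control before 80 Mb -0.012 and the slopes 0.122 and 0.0124.

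With GC weighting the gaps by genotype were -0.524 (whole), -0.750 (after 80 Mb) and -0.450 (after minus before). The control coverage changes were 0.0055 and -0.0779, r with coverage after 80 Mb -0.165 in control and 0.695 in Dnmt1 KO, and r with day before and after 80 Mb -0.160 and 0.646 in control and -0.630 and -0.825 in Dnmt1 KO. The late change after 80 Mb was -0.992. With GC content and control methylation the gaps were -0.116, -0.173 (before 80 Mb), -0.0571 and 0.116, the control coverage changes 0.00599 and -0.0750, r with coverage 0.435 and 0.413, r with day -0.143 and 0.265 in control and -0.516 and -0.475 in Dnmt1 KO, and the late change after 80 Mb -0.331.

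Tiles lower and higher in Dnmt1 KO than in control cells numbered 147 and 65 relative to tiles of the same CpG density (11.7% and 5.19%, compared with 6.85% and 6.13% of all tiles), 294 and 100 for GC content, and 77 and 58 for GC content and control methylation. For Dnmt1 KO day 11 minus day 1 these were 6 and 5, 28 and 25, and 4 and 6 (57 and 98, 309 and 447, and 38 and 82 of all 23811 tiles), and 75 tiles were higher on the log2 scale (1257 of all tiles).

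Replicate numbers did not pair the samples: the correlation of replicate differences between genotypes was -0.00480 to 0.00518. With a replicate block the whole gap stayed at 0.124 but lost its call (p = 0.0938, exact permutation), and no other call on the gap by genotype changed.

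Leaving out 1 library at a time gave 0.0958 to 0.159 for the whole gap and 0.00810 to 0.0469 and -0.178 to -0.0962 for the control coverage changes, where the extremes were the control libraries of day 1. It gave 0.686 to 0.828 for r with coverage in control after 80 Mb, with the call lost without either control library of day 11, and -0.241 to 0.410 for r with day in control before 80 Mb, reversed without control day 11 replicate 1. Slopes between replicates were -25.0 to 2.92 and -10.8 to 1.67. Control day 11 minus day 1 gave 0 to 1 tiles lower and 0 to 1 higher. Dnmt1 KO day 11 minus day 1 gave 214 to 382 lower and 60 to 128 higher (2623 to 5939 and 907 to 2188 of all 23811 tiles), with the fewest without Dnmt1 KO day 11 replicate 2 (214 and 62), replicate 1 (219 and 60) or day 1 replicate 2 (224 and 77).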
